A study of Mus musculus with 12 samples.

Results

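Glucocorticoid-responsive genes and metallothioneins were examined in brain and liver of mice with and without the vault RNA gene Vaultrc5. The set held 9 of the 55450 genes in the deposited count table, picked by symbol: the metallothioneins Mt1, Mt2 and Mt3, the glucocorticoid receptor Nr3c1, the hormone-activating enzyme Hsd11b1, and the glucocorticoid targets Fkbp5, Sgk1, Tsc22d3 and Zbtb16. The animals were males of 7 to 9 weeks, either wild type (Vaultrc5+/+, with "flx" in the sample titles) or knockout (Vaultrc5-/-). Each tissue and genotype had 3 libraries of ribosomal-RNA-depleted total RNA, 12 in all, in 4 groups: wild-type brain, knockout brain, wild-type liver and knockout liver. The labels give no strain, no treatment, no hour of collection and no Cre line, and they do not say that the 3 libraries of a group are separate animals or that brain and liver libraries with the same number share an animal. The p-values below therefore measure only the spread between these libraries.

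Glucocorticoids such as corticosterone diffuse into cells and bind the receptor encoded by Nr3c1, which is held by chaperones until the ligand arrives and then moves to the nucleus and binds DNA at inverted repeats known as glucocorticoid response elements. In liver, the endoplasmic reticulum enzyme encoded by Hsd11b1 regenerates active hormone from its inert 11-keto form, so it sets the supply of ligand inside the cell. Metallothioneins are small cysteine-rich proteins that bind zinc and copper; Mt1 and Mt2 are induced in liver by zinc through the factor MTF1, by glucocorticoids and in the acute-phase response, whereas Mt3 is the brain form.

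All 9 genes are protein-coding and were located in the GENCODE M21 annotation of GRCm38, which the coordinates below follow. The metallothioneins lie together on the plus strand of chromosome 8: Mt3 (ENSMUSG00000031760.9) from 94152607 to 94154146, Mt2 (ENSMUSG00000031762.7) from 94172664 to 94173568 and Mt1 (ENSMUSG00000031765.8) from 94179082 to 94180327. There are 18517 bases between Mt3 and Mt2 and 5513 between Mt2 and Mt1. Only Mt2 shared exon bases with another gene, the antisense Gm45774 over 432 bases, and that gene had at most 5 counts in any library.

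The bases just before the annotated starts of the 3 metallothionein genes are shown because Mt1 and Mt2 kept nearly the same proportion to each other in every brain while Mt3 was at 0 in liver. They are from RefSeq promoter entries (GRCm38.p6), plus strand, 5′ to 3′, cut where the first GENCODE or RefSeq transcript begins: chr8:94178839-94179081 for Mt1, chr8:94172368-94172617 for Mt2 and chr8:94152357-94152606 for Mt3. Capitals mark the core of the metal response element, searched as TGCACNC or TGCGCNC on both strands.
Mt1: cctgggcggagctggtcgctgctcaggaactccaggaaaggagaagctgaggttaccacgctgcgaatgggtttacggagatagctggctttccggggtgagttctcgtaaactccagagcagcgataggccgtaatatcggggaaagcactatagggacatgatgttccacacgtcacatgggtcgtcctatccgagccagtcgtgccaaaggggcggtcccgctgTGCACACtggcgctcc
Mt2: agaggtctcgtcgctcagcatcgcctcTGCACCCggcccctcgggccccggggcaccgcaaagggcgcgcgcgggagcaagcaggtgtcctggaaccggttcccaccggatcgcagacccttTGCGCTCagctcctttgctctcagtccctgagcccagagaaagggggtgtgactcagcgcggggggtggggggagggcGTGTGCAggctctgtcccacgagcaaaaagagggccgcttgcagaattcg
Mt3: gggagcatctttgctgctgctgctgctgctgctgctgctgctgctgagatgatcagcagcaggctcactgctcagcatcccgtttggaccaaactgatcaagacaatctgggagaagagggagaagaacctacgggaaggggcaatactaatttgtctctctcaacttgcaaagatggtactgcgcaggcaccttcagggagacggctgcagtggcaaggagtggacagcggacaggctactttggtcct
The Mt2 stretch held 3 matches, with first letters at bases 223, 128 and 50 counted back from the last printed base, the last of them on the minus strand. The Mt1 stretch held 1, at base 16 counted back, and the Mt3 stretch held 0. Over the whole 300-base entries, which run 50 bases past the start, Mt2 had 4 matches, Mt1 had 3 and Mt3 had 1. Of 32851 mouse promoter entries of that length, 25.7% held at least 1 match, 7.11% at least 2, 1.97% at least 3 and 0.517% at least 4. A match is a run of letters and was not tested as a binding site.

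Entries were found for 7 of the 9 genes, 14 entries in all. The strict palindromic glucocorticoid response element, searched as AGAACA and TGTTCT with any 3 bases between them, a sequence that is its own reverse complement at the named bases, occurred in 3 of the 32851 entries (0.00913%), and 1 of these was the fifth of the 6 Sgk1 entries. It is shown, with the element in capitals, because Sgk1 is a textbook immediate target of the receptor (GRCm38.p6, chr10:21993693-21993722, plus strand).
Sgk1: atgcggaaAGAACAGAATGTTCTcggagat
The element begins 189 bases before the RefSeq start at 21993890. No other entry of the 7 genes held these letters in its window.

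The tissue labels and the targeted gene were checked first. Alb, the hepatocyte albumin gene, had 0 to 5 counts in brain and at least 714287 in liver, and Snap25, a neuronal gene, had at least 31003 in brain and at most 3 in liver. Vaultrc5 had 33 to 48 counts in wild-type livers, 1 to 4 in wild-type brains and 0 in all knockout libraries. The brain libraries held 14844937 to 18567362 counts and the liver libraries 23247425 to 27155478, so that 3 counts, the floor used here, stand for 0.165 to 0.198 CPM in brain and 0.110 to 0.128 CPM in liver. CPM are counts relative to the size of the library, adjusted within each tissue by TMM. They are not comparable between genes of different length or, being scaled apart, between brain and liver. Differences between tissues were tested in fits that scaled both tissues together. Levels set side by side between genes are TPM, scaled by gene length as well as library size and computed over all exon bases of each gene. In whole-tissue RNA, fewer cells of a type and less RNA per cell cannot be told apart.

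All 3 metallothioneins were higher in wild-type brain than in wild-type liver, and Mt3 was at 0 in liver. Mt3 had 64.4, 84.1 and 86.2 CPM in wild-type brains 1, 2 and 3 and 73.9, 86.7 and 89.0 CPM in knockout brains 1, 2 and 3. In liver it had 0 counts in all 6 libraries, each of which allows at most the floor of 3 counts. Wild-type brain stood at 179 ± 33.8 TPM (SD, n = 3) against a mean liver floor of 0.181 TPM, a ratio of means of 987-fold. That ratio rests on TPM without TMM, and the lowest single brain, wild-type brain 1, had 140 TPM. In the knockout the same ratio of means was 1004-fold, from 188 ± 10.2 TPM (SD, n = 3) in brain.

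Mt1, an inducible metallothionein, had 76.6, 65.8 and 83.0 CPM in wild-type brains 1 to 3 and 62.4, 84.0 and 86.0 CPM in knockout brains 1 to 3. In liver it had 2.86, 10.5 and 22.1 CPM in the wild type and 4.18, 55.9 and 21.5 CPM in the knockout. The brain values differed by at most 1.38-fold, with overlapping genotypes. The liver values differed by up to 19.6-fold and spanned a wide range in both genotypes, with both libraries numbered 1 lowest. Mt2 had 34.4, 26.5 and 35.5 CPM in wild-type brains and 26.4, 37.4 and 37.7 CPM in knockout brains, and 0.798, 2.06 and 2.72 CPM in wild-type livers and 0.804, 24.6 and 2.80 CPM in knockout livers. As for Mt1, the livers numbered 1 were lowest and knockout liver 2 was highest.

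**Figure D1:**
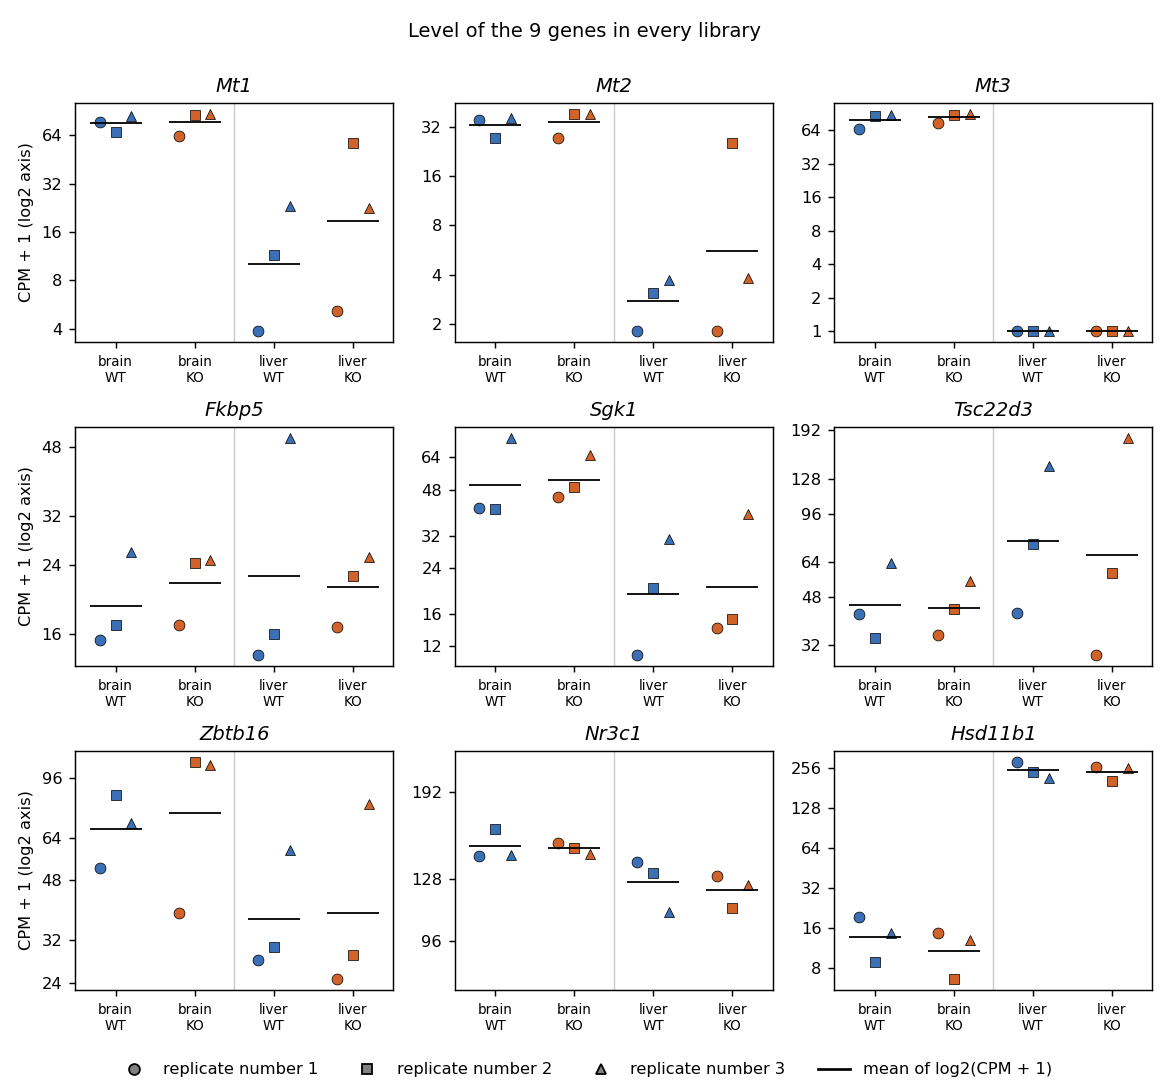
Level of each of the 9 genes in every library, as CPM + 1 on a log2 axis whose range differs between panels, by tissue and genotype. CPM were scaled within each tissue and are not comparable between brain and liver. Symbols give the replicate number and bars the mean of log2(CPM + 1). Mt1 and Mt2 spread less in brain than in liver, Mt3 is at 0 in all 6 livers, and the triangles of libraries numbered 3 stand highest for Fkbp5, Sgk1 and Tsc22d3 in both tissues.

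Between wild-type brain and wild-type liver, 14817 of the 18850 genes tested passed the threshold of an adjusted p under 0.05 (edgeR quasi-likelihood test with Benjamini-Hochberg adjustment), which is 78.6%, with 43.9% higher in brain and 34.7% higher in liver. Of the 9 genes, 7 passed, a share near that background: Mt1, Mt2 and Mt3 were higher in brain, and Hsd11b1, Tsc22d3, Fkbp5 and Nr3c1 were higher in liver. The log2 fold change, brain over liver, was 3.24 ± 0.37 (SE) for Mt2 (edgeR adjusted p = 0.000104) and 1.81 ± 0.58 (SE) for Mt1 (edgeR adjusted p = 0.0216). The Mt1 call was lost without any low-count filter (adjusted p = 0.104) and without wild-type brain 1, 2 or 3 (0.0536, 0.0686 and 0.0574) or wild-type liver 2 (0.0736), all by edgeR, and with 1 library left out the Mt1 value ran from 1.33 without wild-type liver 1 to 2.61 without wild-type liver 3. With library totals the log2 fold changes were 4.08 for Mt2 and 2.64 for Mt1, both past the threshold.

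In the knockout, 14789 of 18785 genes passed (78.7%, with 43.5% higher in brain and 35.2% higher in liver), and 5 of the 9 genes did so. Mt2 and Mt1 no longer passed, with log2 fold changes, brain over liver, of 1.00 ± 1.00 (SE) and 0.67 ± 0.74 (SE) and edgeR adjusted p-values of 0.386 and 0.435. Without knockout liver 2 these were 3.36 for Mt2 (edgeR adjusted p = 0.00120) and 1.72 for Mt1 (edgeR adjusted p = 0.0453). With library totals they were 1.92 and 1.56, and with the replicate number as a block 2.06 and 1.22, none of them past the threshold. The difference between the genotypes in these tissue contrasts is the same quantity as the difference between tissues in the knockout effect, given further on, and it was not called for either gene.

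Within the brain the 3 metallothioneins were the most abundant of the 9 transcripts per length. Over the 6 brains Mt3 ran from 140 to 199 TPM with a median of 193, Mt1 from 128 to 164 TPM with a median of 149, and Mt2 from 113 to 155 TPM with a median of 140. These ranges overlapped. The distances between the genes depended on the length used. Over the principal transcript alone the medians were 384 TPM for Mt3, 338 TPM for Mt1 and 161 TPM for Mt2, and the Mt2 range (129 to 178 TPM) no longer overlapped with that of Mt1 (291 to 372 TPM). The annotated exon bases of Mt1 (1246) exceed its principal transcript (549) by far more than those of Mt2 (588 against 511). In liver the Mt1 level ran from 3.76 to 64.6 TPM with a median of 21.5, and Mt2 from 2.23 to 60.3 TPM with a median of 6.68.

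Mt1 and Mt2 kept nearly the same proportion in every brain. The Mt2 count was 0.450, 0.402 and 0.427 times the Mt1 count in wild-type brains 1 to 3 and 0.424, 0.445 and 0.438 times in knockout brains 1 to 3. In liver the ratio was lower in 5 libraries, at 0.279, 0.197 and 0.123 in wild-type livers 1 to 3 and 0.193 and 0.130 in knockout livers 1 and 3. Knockout liver 2, at 0.440, was the only liver with a ratio inside the brain range. Its Mt1 stood on 1315 counts and its Mt2 on 579. Likeness of pattern was measured as the mean absolute difference of log2(CPM + 1), centred on the mean of the 6 libraries of a tissue. In brain the genes most like Mt1 were Tmem267 (0.0346), Gm37334 (0.0380) and Mt2 (0.0410) of 12504 genes with a median of 0.197. In liver they were Fabp5, a fatty acid-binding protein gene (0.508), Mt2 (0.554) and Gm24924 (0.639) of 9619 genes with a median of 1.17. Mt3 was 1411th in likeness to Mt1 in brain, at 0.142.

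The knockout did not move any of the metallothioneins past the threshold in either tissue. In brain 0 of 18075 genes were called (0%; edgeR quasi-likelihood test), 122 genes (0.675%) had an unadjusted p under 0.05, and the DESeq2 Wald test also called 0. The log2 fold changes, knockout over wild type, were 0.04 ± 0.15 (SE) for Mt1, 0.08 ± 0.18 for Mt2 and 0.09 ± 0.14 for Mt3, with an edgeR adjusted p of 1.00 for each. The knockout brain exceeded the same-numbered wild-type brain in 2 of 3 numbers for Mt1 and Mt2 and in 3 of 3 for Mt3, where it had 1.15, 1.03 and 1.03 times the level in numbers 1, 2 and 3. The brain numbers were not taken as pairs, and the CPM of the genotypes overlapped for each of these genes.

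In liver 0 of 15329 genes were called (0%; edgeR), 536 (3.5%) had an unadjusted p under 0.05, the DESeq2 Wald test called 10, and the fit with the replicate number as a block called 2, none of them among the 9 genes. The log2 fold change was 2.32 ± 1.35 (SE) for Mt2 and 1.20 ± 1.13 (SE) for Mt1, with an edgeR adjusted p of 0.992 for both. With the replicate number as a block they were 1.51 ± 1.16 (SE) and 1.02 ± 0.73 (SE), with edgeR adjusted p-values of 0.870 and 0.864. Without knockout liver 2 the log2 fold changes were -0.06 for Mt2 and 0.11 for Mt1. In numbers 1 and 3 the knockout liver had 1.46 and 0.974 times the Mt1 level of the same-numbered wild-type liver, against 5.35 times in number 2, and for Mt2 the factors were 1.01 and 1.03 against 11.9.

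**Figure D2:**
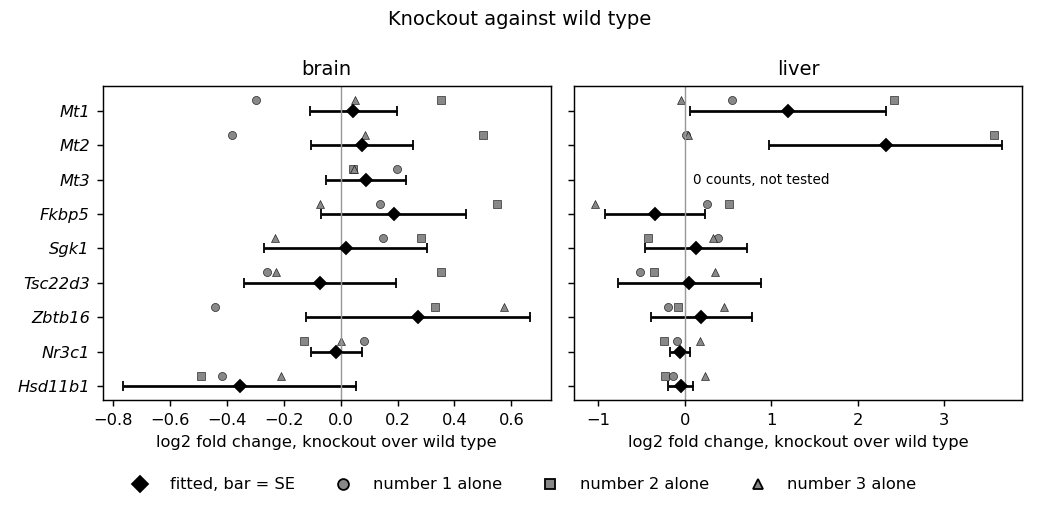
Knockout over wild type on the log2 scale for each gene in brain and in liver (the 2 panels have different ranges); diamonds with bars give the edgeR estimate ± SE and grey points the log2 ratio of CPM between same-numbered libraries. The bars of every gene reach across 0 except those of Mt1 and Mt2 in liver, whose estimates lie between the point of number 2 and the points of numbers 1 and 3.

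Knockout liver 2 also stood apart in genes other than the metallothioneins. Its Mt1 was 2.53 times and its Mt2 8.78 times the next highest liver. Ranked by the excess of log2(CPM + 1) over the highest of the other 5 livers, Mt2 was 6th and Mt1 49th of 15329 genes. The genes ahead of Mt2 were Lcn2, a siderophore-binding secreted protein, at 227 CPM against 0.843 to 4.90 CPM elsewhere, Orm2, an acute-phase glycoprotein, at 269 against 3.70 to 9.43 CPM, the serum amyloid genes Saa2 at 1053 against 2.26 to 48.7 CPM and Saa1 at 1407 against 8.37 to 158 CPM, and Cxcl14, a chemokine, at 20.5 against 0.510 to 1.33 CPM. These genes were picked by that ranking, after the values were seen. In all, 74 genes (0.483%) were at least 2-fold above every other liver on the CPM + 1 scale in this library, against 1 to 10 genes in each of the other 5.

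Markers of other cells moved in the same library. All 6 Kupffer cell and macrophage markers (Adgre1, Clec4f, Cd68, Csf1r, Vsig4 and Marco) were highest in knockout liver 2, where their sum was 244 CPM against 101 to 140 CPM in the other 5 livers; none of the 6 was at 0. The 6 hepatocyte markers summed to 49696 CPM in that library and to 55988 to 75750 CPM in the others, and 1 of the 6 was highest there. Their part in the metallothionein values was not tested.

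**Figure D3:**
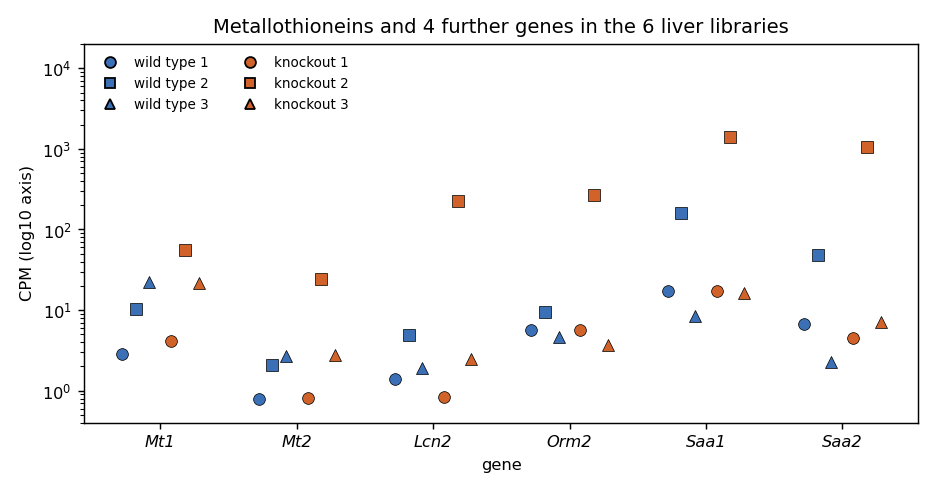
Mt1, Mt2 and 4 genes ranked ahead of Mt2 (Lcn2, Orm2, Saa1 and Saa2) in the 6 livers, as CPM on a log10 axis. Knockout liver 2 is the highest library for all 6 genes, with Mt1 at 55.9 and Mt2 at 24.6 CPM, and wild-type liver 2 is the next highest for Saa1 and Saa2.

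The receptor was the steadiest of the 9 genes. Nr3c1 (ENSMUSG00000024431.15, chromosome 18, minus strand, 39410545 to 39519421) had 142, 160 and 142 CPM in wild-type brains 1 to 3 and 150, 147 and 143 CPM in knockout brains 1 to 3. In liver it had 137, 131 and 109 CPM in the wild type and 129, 111 and 123 CPM in the knockout. The genotypes overlapped in both tissues, and the log2 fold change, knockout over wild type, was -0.02 ± 0.09 (SE) in brain and -0.06 ± 0.11 (SE) in liver, with edgeR adjusted p-values of 1.00 and 0.992. Its SD between libraries of a group, on log2(CPM + 1), was 0.0757 in brain, where 8.33% of the genes tested varied less, and 0.146 in liver, where 43.3% varied less. Among genes of a similar mean level, 17.0% varied less in brain and 58.7% in liver.

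Whether the receptor was higher in liver or in brain depended on the scaling. With TMM the log2 fold change, brain over liver, was -0.62 ± 0.12 (SE) in the wild type (edgeR adjusted p = 0.00216) and -0.58 ± 0.11 (SE) in the knockout (edgeR adjusted p = 0.00141). With library totals it was 0.22 and 0.29, both with the opposite sign and neither past the threshold. That change of scaling moved the median of all genes from 0.21 to 1.05 in the wild type and from 0.21 to 1.08 in the knockout, and the share of calls that were higher in brain from 55.85% to 74.43% and from 55.3% to 75.09%. Per length, Nr3c1 ran from 41.9 to 52.2 TPM in brain and from 20.8 to 29.3 TPM in liver.

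Hsd11b1, the reductase that regenerates corticosterone, was the most abundant of the 9 genes in liver and among the least abundant in brain. The gene (ENSMUSG00000016194.14) is on chromosome 1, minus strand, from 193221634 to 193264075. It had 285, 237 and 216 CPM in wild-type livers 1 to 3 and 258, 203 and 253 CPM in knockout livers 1 to 3. In brain it had 18.4, 7.88 and 13.8 CPM in the wild type and 13.8, 5.62 and 12.0 CPM in the knockout. In TPM the tissues did not overlap, at 3.21 to 9.99 in brain and 68.7 to 110 in liver. The log2 fold change, brain over liver, was -5.06 ± 0.32 (SE) in the wild type (edgeR adjusted p = 3.60e-06) and -5.37 ± 0.36 (SE) in the knockout (edgeR adjusted p = 6.14e-06). With library totals it was -4.21 and -4.49, still past the threshold. In liver the level ran from 68.7 to 110 TPM with a median of 94.4.

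In brain the enzyme varied more within a genotype than between genotypes. The log2 fold change, knockout over wild type, was -0.35 ± 0.41 (SE) in brain and -0.05 ± 0.14 (SE) in liver (edgeR adjusted p = 1.00 and 0.997). Each knockout brain was below the wild-type brain of its number, with 0.750, 0.713 and 0.865 times the level in numbers 1, 2 and 3. The brain numbers were not taken as pairs, however, and the genotypes overlapped, at 5.62 to 13.8 CPM in the knockout and 7.88 to 18.4 CPM in the wild type. How many of all genes ran in one direction in every number was not counted. Its SD between brains of a group was 0.597 on log2(CPM + 1), above that of 95.5% of the genes tested. A sum of 6 stellate cell and fibroblast markers (Lrat, Dcn, Col1a1, Col3a1, Des and Reln), none of them at 0, was likewise lowest in the brains numbered 2, at 491, 180 and 230 CPM in the wild type and 457, 162 and 358 CPM in the knockout, although only 1 of the 6 was highest in both brains numbered 1. A sum of 6 choroid plexus markers, none of them at 0 in all brains, was lowest in the same brains within each genotype and swung further, at 255, 4.74 and 482 CPM in the wild type and 661, 9.64 and 11.9 CPM in the knockout. All 6 were highest in knockout brain 1. The 6 hepatocyte markers, which share Ttr with that list, summed to 219, 0.937 and 416 CPM in wild-type and 585, 3.55 and 6.55 CPM in knockout brains. The 6 endothelial markers summed to 135 to 159 CPM over the 6 brains. The part of these markers in the Hsd11b1 values was not tested.

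In liver the 4 targets of the receptor were highest in the libraries numbered 3 of both genotypes. Tsc22d3, which encodes the anti-inflammatory leucine zipper protein GILZ (ENSMUSG00000031431.13, chromosome X, minus strand, 140539528 to 140600659), had 40.9, 73.5 and 141 CPM in wild-type livers 1, 2 and 3 and 28.5, 57.5 and 180 CPM in knockout livers 1, 2 and 3. Sgk1, a kinase that acts on ion transport (ENSMUSG00000019970.15, chromosome 10, plus strand, 21882184 to 21999903), had 10.1, 19.1 and 30.2 CPM in wild-type livers and 13.1, 14.2 and 37.9 CPM in knockout livers. Zbtb16, which encodes the zinc finger factor PLZF (ENSMUSG00000066687.5, chromosome 9, minus strand, 48654297 to 48836222), had 27.0, 29.6 and 57.9 CPM in wild-type livers and 23.6, 28.0 and 79.3 CPM in knockout livers. For each of the 3 genes both livers numbered 3 were above the other 4. The sum of the 6 hepatocyte markers was likewise highest in both livers numbered 3, at 69465, 58114 and 73447 CPM in wild-type livers 1 to 3 and 55988, 49696 and 75750 CPM in knockout livers 1 to 3, and 2 of the 6 were by themselves highest in both livers numbered 3. Their part in the values of the targets was not tested.

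Fkbp5, the co-chaperone that lowers the receptor's affinity for hormone (ENSMUSG00000024222.17, chromosome 17, minus strand, 28399094 to 28517527), had 13.1, 15.03 and 49.7 CPM in wild-type livers 1 to 3 and 15.7, 21.5 and 24.2 CPM in knockout livers 1 to 3. Here too both livers numbered 3 were highest. In all, 4 of the 8 genes tested in liver, which leaves out Mt3, were higher in both libraries numbered 3 than in the other 4, as were 12.4% of all 15329 genes. Hsd11b1 was instead highest in both libraries numbered 1, as were 7.7% of all genes, and none of the 8 was highest in both libraries numbered 2 (8.21% of all genes).

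In brain the libraries numbered 3 were highest for 3 of the 4 targets. Sgk1 had 39.7, 39.5 and 75.1 CPM in wild-type brains 1 to 3 and 44.1, 48.0 and 64.1 CPM in knockout brains 1 to 3. Tsc22d3 had 40.5, 33.1 and 62.6 CPM in wild-type and 33.9, 42.4 and 53.5 CPM in knockout brains. Fkbp5 had 14.4, 15.9 and 25.0 CPM in wild-type and 15.9, 23.2 and 23.8 CPM in knockout brains. Both brains numbered 3 were the highest for these 3 genes, 3 of the 9 tested against 6.05% of all 18075 genes, though for Fkbp5 knockout brain 2 lay close behind. Zbtb16 did not share the ordering: it had 51.1, 84.1 and 69.6 CPM in wild-type brains and 37.6, 106 and 104 CPM in knockout brains, lowest in both brains numbered 1. Sums of 6 astrocyte markers and of the 6 macrophage markers named above were also lowest in both brains numbered 1. The astrocyte sum was 4343 and 4232 CPM there against 5009 to 5674 CPM in the other 4 brains, with no marker at 0 in all brains. The macrophage sum was 43.3 and 49.8 CPM against 60.5 to 70.5 CPM, with Clec4f, Vsig4 and Marco at 0 in all brains. A sum of 6 neuron markers was lowest in number 1 within each genotype, at 4191, 5749 and 4373 CPM in the wild type and 4584, 5338 and 4878 CPM in the knockout. Taken singly, 1 of the 6 astrocyte and 1 of the 6 neuron markers were instead highest in both brains numbered 1, against 0 of the 6 macrophage markers. The part of these markers in the Zbtb16 values was not tested. None of the 9 genes was highest in both brains numbered 1 or in both numbered 2 (19.4% and 15.5% of all genes).

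Fkbp5, Sgk1 and Tsc22d3 were highest in both libraries numbered 3 in each tissue, 3 of the 8 genes tested in both tissues, as were 137 of 13681 genes in all (1.0%). None was highest in number 1 or in number 2 of both tissues, against 1.82% and 1.29% of all genes. By the same measure of likeness the genes nearest to Fkbp5 were Gm26945 (0.0691), Sema3e, a semaphorin gene (0.0707), and Dnah9, an axonemal dynein gene (0.0860), in brain, around a median of 0.306, and Hip1r (0.225), Pgm2l1 (0.231) and Por, the P450 reductase gene (0.244), in liver, around a median of 0.508.

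The difference among the replicate numbers in liver was tested with genotype in the fit, a comparison added after the values were seen. It was called for 157 of 15329 genes (1.02%; edgeR quasi-likelihood test with Benjamini-Hochberg adjustment). Of the 8 genes tested 2 passed, Zbtb16 (edgeR adjusted p = 0.0310) and Tsc22d3 (edgeR adjusted p = 0.0475). The log2 difference of number 3 from number 1 was 1.43 for Zbtb16 and 2.23 for Tsc22d3, and that of number 2 from number 1 was 0.19 and 0.92. Sgk1, at 1.55 for number 3 over number 1, missed the threshold (edgeR adjusted p = 0.0689), as did Mt1 (0.512), Fkbp5 (0.527), Hsd11b1 (0.554), Mt2 (0.589) and Nr3c1 (0.700).

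These calls depended on single libraries and, for Sgk1, on the filter. Each number had 1 liver per genotype, so a fit without 1 of them held a single library of that number. The Zbtb16 call was lost without wild-type liver 1 (edgeR adjusted p = 0.0665) or knockout liver 1, 2 or 3 (0.113, 0.0942 and 0.0726). The Tsc22d3 call was lost without wild-type liver 1 or 2 (0.0817 and 0.0789) or knockout liver 1 or 2 (0.121 and 0.129). Sgk1 passed without any low-count filter (edgeR adjusted p = 0.0373). With a library left out, Sgk1 and Mt1 passed without wild-type liver 2 or knockout liver 2, Mt2 without wild-type liver 2 and Fkbp5 without knockout liver 3. In those fits a single library stood for its number, and the spread came from the other livers, so they cannot decide whether that number differed. The DESeq2 likelihood ratio test called 529 genes, among them Tsc22d3 (adjusted p = 6.60e-18), Zbtb16 (2.51e-10) and Sgk1 (9.46e-07).

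**Figure D4:**
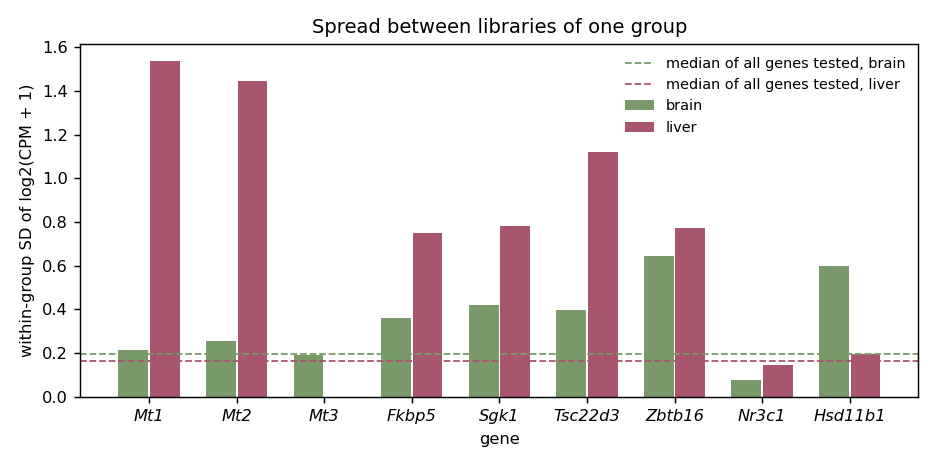
SD of log2(CPM + 1) between libraries of a group, pooled over the 2 genotypes, for each gene in brain and in liver; the dashed line is the median of all genes tested in that tissue. In liver 6 genes lie far above the median of 0.162 while Nr3c1 and Hsd11b1 lie near it, and in brain Zbtb16 and Hsd11b1 are the most variable.

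The genes differed in their spread between libraries of a group. In liver the SD on log2(CPM + 1) was 1.54 for Mt1, 1.45 for Mt2, 1.12 for Tsc22d3, 0.782 for Sgk1, 0.774 for Zbtb16 and 0.750 for Fkbp5, each above that of at least 98.4% of the genes tested. In brain it was 0.646 for Zbtb16, 0.419 for Sgk1, 0.396 for Tsc22d3, 0.359 for Fkbp5, 0.255 for Mt2, 0.215 for Mt1 and 0.191 for Mt3, around a median of 0.197 over all genes. Among brain genes of a similar mean level, 77.5% varied less than Mt2, 72.9% less than Mt1 and 68.5% less than Mt3. The medians of those genes were 0.144, 0.136 and 0.136.

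The 4 targets did not pass the threshold between genotypes in either tissue. The log2 fold changes in liver, knockout over wild type, were -0.35 ± 0.58 (SE) for Fkbp5, 0.14 ± 0.59 for Sgk1, 0.05 ± 0.83 for Tsc22d3 and 0.19 ± 0.59 for Zbtb16, with edgeR adjusted p-values of 0.992 to 0.999. With the replicate block they were -0.11 ± 0.40 (SE), 0.10 ± 0.17, -0.17 ± 0.18 and 0.07 ± 0.13, with edgeR adjusted p-values of 0.896 to 0.968. In number 3 the Fkbp5 level of the knockout liver was 0.486 times that of the wild type, against 1.20 and 1.43 times in numbers 1 and 2. In brain the log2 fold changes were 0.19 ± 0.25 (SE) for Fkbp5, 0.02 ± 0.28 for Sgk1, -0.07 ± 0.27 for Tsc22d3 and 0.27 ± 0.39 for Zbtb16, each with an edgeR adjusted p of 1.00.

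Between the tissues, Tsc22d3 and Fkbp5 were higher in liver with TMM. The log2 fold change of Tsc22d3, brain over liver, was -1.77 ± 0.44 (SE) in the wild type (edgeR adjusted p = 0.00703) and -1.88 ± 0.61 (SE) in the knockout (0.0233). For Fkbp5 it was -1.35 ± 0.52 (SE) in the wild type (edgeR adjusted p = 0.0423) and -0.82 ± 0.20 (SE) in the knockout (0.00727). With library totals both genes missed the threshold in both genotypes, at -0.93 and -1.03 for Tsc22d3 and at -0.53 and, with the opposite sign, 0.05 for Fkbp5. The wild-type Fkbp5 call was also lost without wild-type brain 1 or 2 (edgeR adjusted p = 0.117 and 0.132) or wild-type liver 3 (0.123, at a log2 fold change of -0.49), and the knockout Tsc22d3 call without knockout brain 1 or 2 (0.0898 and 0.0739). Without the liver numbered 3 of the same genotype the Tsc22d3 log2 fold change was -1.21 in the wild type (edgeR adjusted p = 0.0166) and -0.87 in the knockout (0.0452). Without any low-count filter the adjusted p was 0.150 for Fkbp5 in the wild type and 0.114 for Tsc22d3 in the knockout.

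Sgk1 and Zbtb16 did not differ between tissues beyond the threshold with TMM and no replicate block. For Sgk1 the log2 fold change, brain over liver, was 0.52 ± 0.41 (SE) in the wild type and 0.41 ± 0.40 in the knockout (edgeR adjusted p = 0.274 and 0.374), and it passed with library totals at 1.35 and 1.26, in the wild type with the replicate block at 0.58 (edgeR adjusted p = 0.0293) and, in the knockout, without knockout liver 3 at 1.04 (edgeR adjusted p = 0.00201). For Zbtb16 it was -0.02 ± 0.31 (SE) and 0.06 ± 0.54 (adjusted p = 0.960 and 0.918), and with library totals it was 0.81 in the wild type, past the threshold with the opposite sign (edgeR adjusted p = 0.0460), and 0.91 in the knockout, where it missed it (0.169).

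Per length, the order in brain after the metallothioneins was Nr3c1 (median 46.1 TPM over 6 libraries), Zbtb16 (36.1), Sgk1 (23.4), Tsc22d3 (22.7), Hsd11b1 (7.19) and Fkbp5 (4.98). Sgk1 ran from 18.7 to 37.7 TPM and Tsc22d3 from 19.1 to 35.5 TPM, so these neighbours did not differ beyond their spread, nor did Hsd11b1 (3.21 to 9.99 TPM) and Fkbp5 (3.53 to 6.51 TPM). In liver Hsd11b1 came first, followed by Nr3c1 (27.3), Tsc22d3 (23.2), Mt1 (21.5), Zbtb16 (8.70), Mt2 (6.68), Sgk1 (5.32), Fkbp5 (2.98) and Mt3, at 0. From Nr3c1 down to Fkbp5 the ranges of neighbouring genes overlapped, and Hsd11b1 (68.7 to 110 TPM) did not overlap with Nr3c1, the next in order. The range of Tsc22d3 (10.7 to 73.9 TPM) did reach into that of Hsd11b1. Over the principal transcripts alone Tsc22d3 (51.0) and Mt1 (48.8) came before Nr3c1 (32.6) and Sgk1 (10.6) before Zbtb16 (8.98) and Mt2 (7.69) in liver, and Tsc22d3 (49.8) and Sgk1 (46.7) before Zbtb16 (37.3) in brain.

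Whether the knockout effect differed between the tissues was tested over all 12 libraries. Of 20141 genes, 0 were called (0%; edgeR), 489 (2.43%) had an unadjusted p under 0.05, the DESeq2 test called 1 and the fit with the replicate block called 2. Mt3, at 0 in every liver, was left out of this comparison. Mt2 had the smallest p of the other 8 genes, with a liver minus brain difference of 2.21 ± 1.23 (SE) on the log2 scale and an edgeR adjusted p of 1.00. With the replicate block that difference was 1.56, and without knockout liver 2 it was -0.17.

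Other genes of the pathway were taken from 4 lists. The lists were chosen with earlier results of these data known, so their counts are no independent test. The first list held 30 other glucocorticoid-induced genes, of which 28 were tested in liver and 25 in brain. In the liver comparison of replicate numbers 3 of the 28 passed, against 1.02% of all genes, and 13 had an unadjusted p under 0.05, against 12.9%. The median of the largest log2 difference between numbers was 1.15 over the list and 0.277 over all genes. Both livers numbered 3 were above the other 4 for 17 of the 28, against 12.4% of all genes, and both brains numbered 3 for 9 of 25, against 6.05%.

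The 3 genes that passed were Pck1, the gluconeogenic enzyme, Plin4, a lipid droplet protein, and Nfkbia, the inhibitor of NF-kB, with edgeR adjusted p-values of 0.0261, 0.0373 and 0.0484. Pck1 had 772, 1874 and 2030 CPM in wild-type livers 1 to 3 and 867, 1996 and 2110 CPM in knockout livers 1 to 3, so livers 1 stood below the others. Plin4 had 5.88, 10.3 and 34.6 CPM in wild-type and 8.47, 7.87 and 27.1 CPM in knockout livers. Nfkbia had 20.6, 30.5 and 42.5 CPM in wild-type and 21.6, 21.9 and 39.5 CPM in knockout livers. Per1, a clock gene that is also a receptor target, and Lpin1, a lipid phosphatase, differed by 2.74 and 2.64 on the log2 scale between numbers 3 and 1 but missed the threshold (edgeR adjusted p = 0.0779 and 0.160).

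None of the 28 liver or 25 brain genes of this list was called between genotypes. The median log2 fold change, knockout over wild type, was 0.06 in liver against 0.01 over all genes and 0.11 in brain against -0.01 over all genes. Nedd9, a scaffold protein of focal adhesions, had the smallest p of the list in liver. It had 5.63, 6.59 and 7.01 CPM in wild-type and 8.50, 11.6 and 10.7 CPM in knockout livers. Its log2 fold change was 0.68 ± 0.16 (SE), and the edgeR adjusted p was 0.992. In brain it was Klf9, a Kruppel-like factor, at 0.19 ± 0.09 (SE) and an edgeR adjusted p of 1.00.

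The other 3 lists held genes of zinc handling, of receptor chaperones and co-regulators, and of steroid supply. None of the 18, 18 and 7 genes tested in liver, nor of the 17, 18 and 6 tested in brain, was called between genotypes, and none was called among the liver replicate numbers. In that comparison 6, 2 and 3 of the liver genes had an unadjusted p under 0.05, against 12.9% of all genes, and the medians of the largest log2 difference were 0.325, 0.161 and 0.332 against 0.277 over all genes. Median log2 fold changes, knockout over wild type, were 0.07, 0.07 and 0.10 in liver and 0.01, 0.01 and 0.01 in brain. Both livers numbered 3 were above the other 4 for 1 of 18, 1 of 18 and 1 of 7 genes, against 12.4% of all genes, and both livers numbered 2 for 3, 4 and 0 of them, against 8.21%. Slc30a6, a zinc transporter, had the smallest p of the zinc list in liver (0.33 ± 0.17 SE) and Akr1c6 the smallest of the steroid list (-0.26 ± 0.11 SE), both with an edgeR adjusted p of 0.992.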

How the data were processed

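Per the labels' protocols, RNA was extracted with TRIzol, treated with DNase, depleted of ribosomal RNA, made into stranded libraries and sequenced as single reads. Per the submitters' processing notes, cutadapt, STAR and the mm10 build were used; the tool that counted reads, and whether it used strand, are not given in the sources used here. The authors deposited expected counts per gene, not normalized; 5.06% to 5.71% of the values per library were not whole, but all values of the 9 genes were. Counts were rounded. edgeR 4.0.16 (R 4.3.3) was run on all genes with TMM, filterByExpr (minimum count 10, minimum total 15), robust quasi-likelihood F-tests and Benjamini-Hochberg adjustment at 0.05; the SE was obtained as the log2 fold change over the root of F. Each comparison used its own 6 libraries and the tissue difference all 12. Alternatives were DESeq2 1.42.0 (test, or size factors alone), library totals, 2 other filters, the replicate number as a block and each library left out. The fits were also run on simulated data, and the outcome is not given here. Spread, rank and likeness used log2(CPM + 1).

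The members, lists and markers were chosen with earlier results of these data known. The rule named the 9 genes, the 2 list genes with the smallest p per tissue, list genes called, and the 3 genes most like Mt1 and Fkbp5; other names were chosen after values were seen. Replicate numbers come from the titles. In liver same-numbered libraries of the 2 genotypes deviated together (correlations 0.309, 0.360 and 0.363 across 11809 genes). They were taken as pairs in the fit with the replicate block and in the same-numbered ratios, but the main liver genotype test was unpaired. The floor of 3 counts covers counting error only, whereas SDs and SEs come from the spread between libraries. RefSeq promoter entries were matched by symbol. The values of 1 cell type marker list are not reported here.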

Additional observations from a re-analysis of the deposited data

How the results depend on the processing

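Of 581 values of the 9 genes recomputed under other settings, 499 kept their direction and side of the threshold, 15 lost the threshold, 6 gained it and 61 changed sign, 53 of these with a library left out. The cause of these changes was not tested. The DESeq2 test gave no p-value for Mt2 in knockout brain against knockout liver, and that value was counted by its sign alone. Among genotype contrasts, the liver count of 0 became 10 with the DESeq2 test, 4 without a low-count filter, 2 with the replicate block and 0 to 1 with a library left out. The count for the difference between tissues became 1 with DESeq2 and 2 with the replicate block. The 157 genes called among liver numbers became 529 with DESeq2, 623 without a filter, 97 with a filter at a mean of 1 CPM and 22 to 208 with a library left out. With the replicate block the Tsc22d3 log2 fold change was -0.17 in liver and -0.14 for the difference between tissues, Zbtb16 was 0.039 in the wild-type tissue contrast, and Sgk1 there was called at 0.58 (edgeR adjusted p = 0.0293). In brain the block called 0 genes, 406 had an unadjusted p under 0.05, and same-numbered libraries correlated at 0.708, 0.708 and 0.000427 across 14967 genes, so the numbers were not taken as pairs; between tissues such correlations were 0.0294 to 0.0660. The block changed no other call of the 9 genes.

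Without a filter Zbtb16 was 0.0071 between wild-type tissues. With library totals the brain over liver values of opposite sign were 0.22 and 0.29 for Nr3c1, 0.81 for Zbtb16 in the wild type and 0.055 for Fkbp5 in the knockout.

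With a library left out, the log2 fold changes that changed sign had these ranges. For the difference between the tissues they were -0.88 to 0.32 (Fkbp5), -0.17 to 2.76 (Mt2), -0.15 to 0.017 (Nr3c1), -0.56 to 0.52 (Sgk1), -0.94 to 0.66 (Tsc22d3) and -0.85 to 0.33 (Zbtb16). For the knockout in liver they were -0.66 to 0.54 (Fkbp5), -0.13 to 0.073 (Hsd11b1), -0.063 to 2.87 (Mt2), -0.15 to 0.013 (Nr3c1), -0.53 to 0.57 (Sgk1), -0.99 to 0.63 (Tsc22d3) and -0.56 to 0.62 (Zbtb16). For the knockout in brain they were -0.036 to 0.18 (Mt1), -0.040 to 0.22 (Mt2), -0.032 to 0.17 (Mt3), -0.046 to 0.052 (Nr3c1), -0.15 to 0.40 (Sgk1) and -0.25 to 0.23 (Tsc22d3). For knockout brain over liver they were -0.25 to 0.78 (Zbtb16). For wild-type brain over liver they were -0.26 to 0.40 (Zbtb16).

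The lowest counts were 0 for Mt3 in all livers, 19 to 70 for Mt2 in 5 livers and 68 for Mt1 in wild-type liver 1; the limit that depth set was not tested.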

Other observations

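The tissue profile of the pathway lists was not described above. Between wild-type brain and liver, where 78.6% of all genes were called (brain higher for 43.9%, liver higher for 34.7%), the zinc-handling list had 18 genes tested, of which 6 were higher in brain and 10 higher in liver (edgeR quasi-likelihood test with TMM). Of the 18 receptor chaperones and co-regulators tested, 5 were higher in brain and 4 in liver, with a median log2 fold change, brain over liver, of -0.01 against 0.21 over all genes. Of the 9 steroid supply genes tested, 3 were higher in brain and 6 in liver. Of the 30 other glucocorticoid-induced genes tested, 7 were higher in brain and 17 in liver, with a median of -1.47. The medians of the zinc-handling and steroid supply lists were -0.67 and -5.06. These values were obtained with TMM, and library totals moved the median of all genes from 0.21 to 1.05. In the knockout, where 78.7% of all genes were called (brain higher for 43.5%, liver higher for 35.2%), the corresponding calls were 5 and 10, 5 and 5, 3 and 6, and 5 and 16.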
